A study of Mus musculus with 2 samples.

Results

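The genes described here are 10 mouse genes of trophoblast and simple epithelium, read from 2 Affymetrix 3' expression arrays. They are Cdx2, the keratin genes Krt8, Krt18 and Krt19, the claudin genes Cldn4, Cldn6 and Cldn7, and Cdh1, Epcam and Tjp1, which serve as epithelial genes that all stem cells express. A gene entered through the probe sets (groups of short array probes for a transcript) named to it alone, and all 10 were found, with 13 probe sets of the 15273 that carry a single gene name, or 10 genes of 10313. The list was drawn up from the difference between these same arrays, so every difference below is a description and none is tested. One array came from embryonic stem cells of line 46C that overexpress lincU, a long noncoding RNA, and the other from 46C cells labelled as control. Line 46C carries a green fluorescent reporter at the neural gene Sox1, and both cultures were kept on feeders, with leukaemia inhibitory factor at 1000 U/ml and 15% serum, until the feeders were taken away for the RNA harvest. How lincU was overexpressed, what the control cells carried and whether the cells were 1 clone are not given in the sources used here. Each group had 1 array, so precision is limited by the number of arrays and no difference has a replicate check.

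Cdx2 encodes the caudal-type homeodomain factor that sets the trophectoderm, the first epithelium of the embryo and the source of the placenta, apart from the inner cell mass. Embryonic stem cells derive from the inner cell mass and hold Cdx2 down, while POU5F1 and CDX2 oppose each other. Keratins 8, 18 and 19 build the intermediate filaments of simple epithelia, as pairs of a type II chain (keratin 8) with a type I chain (keratin 18 or 19), and keratins 8 and 18 are the first made in the embryo. Claudins are membrane proteins that form the strands of tight junctions. E-cadherin (Cdh1) holds cells together at adherens junctions, EPCAM is a surface adhesion protein, and ZO-1 (Tjp1) is the scaffold under the tight junction. Naive stem cells grow as compact epithelial colonies and express these last 3 genes without being trophoblast. The study's title names naive pluripotency and ERK activity as its subjects, and ERK signalling downstream of FGF4 is what sustains trophoblast stem cells in culture.

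The 250 bases before the annotated start were read from RefSeq (GRCm38.p6) for the 8 of the 10 genes that the sequence table held, Krt19 and Cdh1 not being among them. Cldn7, which had a lower signal on the overexpression array, and Tjp1, which differed little, were read but are not printed. Cdx2, Krt8, Krt18, Cldn6 and Cldn4 had lower signals on the overexpression array, while Epcam differed little and serves for comparison. The sequences of these 6 genes are shown. Each is written 5′ to 3′ on the strand of its gene, and capitals mark matches to CACCTG (an E-box, the core bound by SNAI and ZEB repressors) or to TGANTCA (the AP-1 core), on either strand. The Cdx2 stretch is chr5:147307250-147307499 (minus strand), that of Krt8 chr15:102004343-102004592 (minus), that of Krt18 chr15:102027966-102028215 (plus), that of Cldn4 chr5:134946935-134947184 (minus), that of Cldn6 chr17:23679115-23679364 (plus) and that of Epcam chr17:87635729-87635978 (plus).
Cdx2: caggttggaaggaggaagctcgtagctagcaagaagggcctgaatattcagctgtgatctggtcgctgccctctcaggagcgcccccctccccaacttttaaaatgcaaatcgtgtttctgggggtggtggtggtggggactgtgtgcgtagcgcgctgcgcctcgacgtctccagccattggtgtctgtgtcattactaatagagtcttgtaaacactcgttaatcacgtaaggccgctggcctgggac
Krt8: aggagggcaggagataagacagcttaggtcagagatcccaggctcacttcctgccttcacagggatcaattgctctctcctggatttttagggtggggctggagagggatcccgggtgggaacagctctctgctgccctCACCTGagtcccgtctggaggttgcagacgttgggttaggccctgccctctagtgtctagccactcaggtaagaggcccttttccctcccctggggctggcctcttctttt
Krt18: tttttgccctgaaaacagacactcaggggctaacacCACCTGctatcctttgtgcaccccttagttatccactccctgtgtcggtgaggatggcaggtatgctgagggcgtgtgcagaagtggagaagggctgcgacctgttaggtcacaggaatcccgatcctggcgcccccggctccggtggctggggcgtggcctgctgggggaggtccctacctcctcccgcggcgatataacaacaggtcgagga
Cldn4: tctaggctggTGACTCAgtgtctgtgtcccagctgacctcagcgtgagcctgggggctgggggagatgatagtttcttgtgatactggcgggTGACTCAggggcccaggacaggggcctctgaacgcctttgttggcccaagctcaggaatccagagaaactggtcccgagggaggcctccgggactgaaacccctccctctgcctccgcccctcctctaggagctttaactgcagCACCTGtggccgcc
Cldn6: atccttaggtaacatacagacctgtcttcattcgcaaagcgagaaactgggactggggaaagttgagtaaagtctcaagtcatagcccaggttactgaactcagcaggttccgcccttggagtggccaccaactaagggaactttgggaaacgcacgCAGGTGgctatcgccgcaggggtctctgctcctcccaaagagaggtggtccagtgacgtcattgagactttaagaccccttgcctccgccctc
Epcam: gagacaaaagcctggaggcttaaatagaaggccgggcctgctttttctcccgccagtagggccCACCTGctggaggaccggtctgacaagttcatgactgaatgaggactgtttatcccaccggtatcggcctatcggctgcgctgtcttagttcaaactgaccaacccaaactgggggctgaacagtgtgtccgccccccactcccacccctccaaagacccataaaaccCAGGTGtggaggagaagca

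Over the 9 stretches of these 8 genes, Cldn7 having 2 annotated starts, CACCTG was matched in 6, and 17.2% of the 32851 stretches of this length in the table hold it. Among stretches of like base composition, with 50 to 65% G and C, the share was 20.8%. The 6 genes with a match were Krt8, Krt18, Cldn4, Cldn6, Cldn7 and Epcam, so the match did not separate genes with lower signal from Epcam, and Cdx2 and Tjp1 held none. TGANTCA was matched only in Cldn4, at 2 places, and in 6.75% of all stretches. GGGCGG (the GC box) was matched in 5 of the 9 stretches against 32.7% of all. TTTATNG (the core bound by CDX factors), CCGGAAGT (ETS factors) and GGAATG (TEAD factors) were matched in 1 stretch each, in Epcam, Cldn7 and Cldn7, against 9.81%, 2.88% and 12.6% of all. TATAAA (the TATA box) and AACCNGTT (grainyhead-like factors) were matched in none of the 9, against 12.4% and 1.79%. All 9 stretches have 50 to 65% G and C, and among stretches in that range the shares were 5.65% for TGANTCA, 38.6% for GGGCGG, 6.80% for TTTATNG, 4.0% for CCGGAAGT, 13.2% for GGAATG, 6.27% for TATAAA and 1.66% for AACCNGTT. Both strands were read and no match overlapped that of another motif. A match is a description of these letters and not a binding site.

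In the overexpressing cells all 7 genes of the trophoblast, keratin and claudin group had lower signals than in control cells, with log2 differences, overexpression minus control, from -1.89 to -0.70, where a difference of 1 is 2-fold. The median of the 7 was -1.57. Cdh1, Epcam and Tjp1 differed by -0.21 to 0.01, with a median of -0.02. The 10313 genes measured had a median difference of 0 and the genes called bright below had one of 0.00. Because the list was picked on this contrast, these medians restate the choice.

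**Figure D1:**
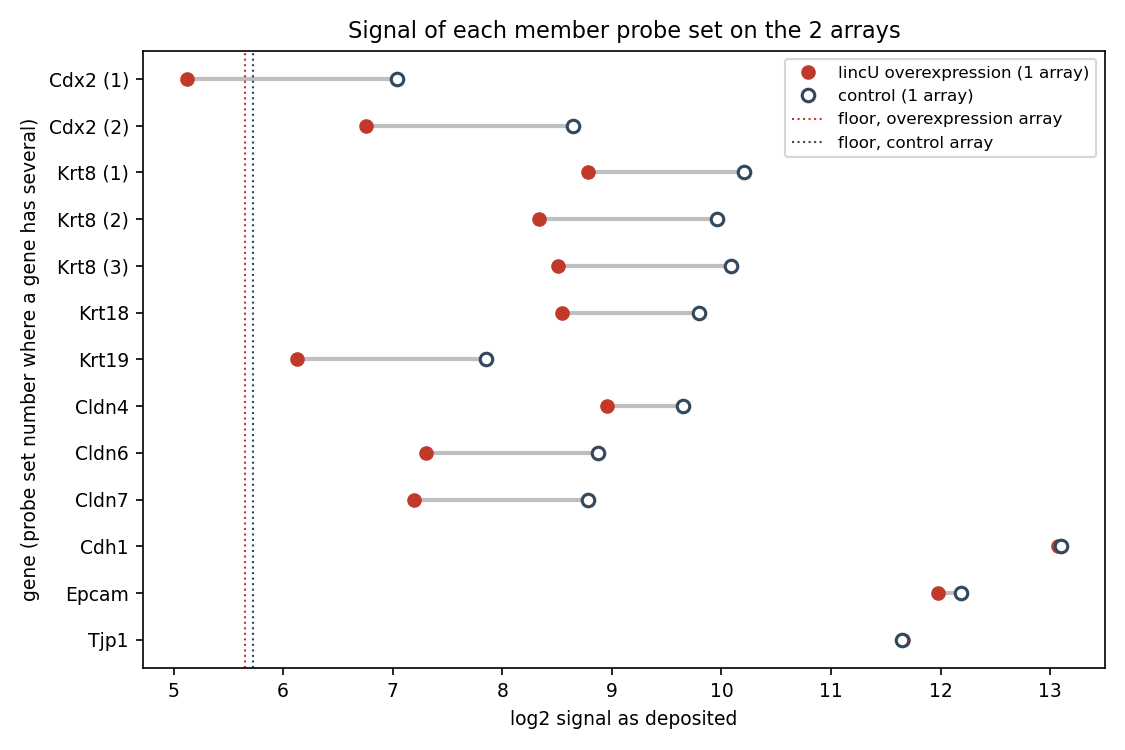
Log2 signal as deposited (horizontal axis) of each of the 13 probe sets (rows) on the overexpression array (filled red) and the control array (open), with the floor of each array as a dotted line. All 10 probe sets of Cdx2, the keratins and the claudins lie further left on the overexpression array, and only the first Cdx2 probe set falls under the floor there, at 5.12, while the points of Cdh1, Epcam and Tjp1 nearly coincide.

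By its brighter probe set, Cdx2 had the largest difference of the 10 genes. With the probe sets of a gene averaged, Cdx2 stood at -1.64 and Krt19, at -1.73, had the largest. The averaged Cdx2 value takes in a second probe set whose difference is only a bound, given below, so that change of rank rests on the bound. The brighter Cdx2 probe set read 6.76 on the overexpression array and 8.65 on the control array, a log2 difference of -1.89 or a signal 3.71-fold lower. The second Cdx2 probe set read 5.12 in overexpressing cells, against 7.04 in control cells. That lies under the floor of the overexpression array, set at 5.65 (the 25th percentile of its named probe sets), so the difference is given as a bound of -1.39. Both probe sets had the higher signal on the control array, and how far their differences agree cannot be read from a signal under the floor. Among the 5609 bright genes, 3 had a difference at or below that of Cdx2, itself included. A gene is called bright if the array with its higher signal is at or above that array's median (7.90 for overexpression, 7.96 for control), and only the control signal of Cdx2 met that mark. Cdx4, a caudal-type gene of the same family, was under the floor on both arrays.

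**Figure D2:**
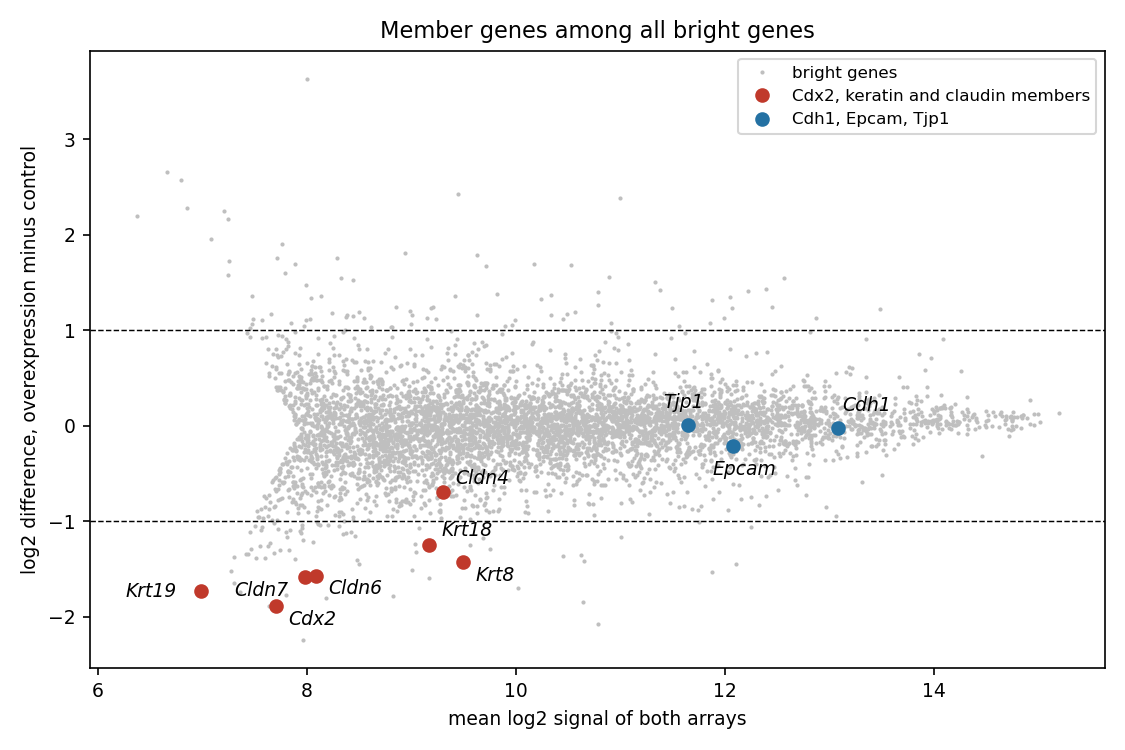
Log2 difference, overexpression minus control (vertical axis), against the mean log2 signal of both arrays (horizontal axis) for the 5609 bright genes (grey), with Cdx2, the keratins and the claudins in red, the 3 general epithelial genes in blue and dashed lines at a 2-fold difference. The red points run from -0.70 for Cldn4 to -1.89 for Cdx2 and the blue points lie close to 0, and Krt19 is drawn although it is dim.

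All 3 keratins were lower in overexpressing cells. Krt8 was read by 3 probe sets, all of types that can bind more than 1 transcript, as are those of Epcam and Tjp1. The brightest read 8.78 in overexpressing cells and 10.21 in control cells, a difference of -1.43. The other Krt8 probe sets read 8.33 and 8.51 in overexpressing cells, against 9.96 and 10.09 in control cells, with differences of -1.63 and -1.58. The 3 Krt8 differences spanned 0.20 from end to end. Between bright probe sets of 1 gene, over 1732 genes, the SD was 0.23, which is not the same measure as a range. That SD holds no variation between cultures.

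Krt18, whose product pairs with keratin 8, read 8.54 in overexpressing cells and 9.79 in control cells, a difference of -1.25 or 2.37-fold lower. Krt8 and Krt18 met the brightness mark on both arrays and lie next to each other among the measured genes of chromosome 15. Krt19, which encodes a further type I chain and lies on chromosome 11, read 6.12 in overexpressing cells, against 7.85 in control cells. Its difference was -1.73, but it was dim, with a control signal 0.11 under the median of that array. With the floor raised to the 40th percentile the Krt19 difference was -0.90, and a pseudocount instead of a floor gave -1.37.

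The claudins split by size of difference. Cldn6, a claudin of early embryonic epithelia, read 7.30 in overexpressing cells and 8.87 in control cells, a difference of -1.57. Cldn7, which in epithelia binds EPCAM, read 7.19 in overexpressing cells and 8.78 in control cells, a difference of -1.58. Cldn6 was thus 2.97-fold lower and Cldn7 nearly the same, and both met the brightness mark only on the control array. Cldn4, a claudin of trophectoderm and of many simple epithelia, read 8.96 in overexpressing cells and 9.65 in control cells, a difference of -0.70 or 1.62-fold lower. Cldn4 was the one gene of the 7 that did not reach 2-fold.

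The epithelial genes that stem cells share stood apart from the rest of the list. They were also brighter, with mean log2 signals from 11.65 to 13.09, against 6.99 to 9.49 for the other genes of the list. Signal level and size of difference therefore go together here. Cdh1 read 13.07 in overexpressing cells and 13.10 in control cells, a difference of -0.02. Tjp1 read 11.66 in overexpressing cells and 11.65 in control cells, a difference of 0.01. Epcam read 11.98 in overexpressing cells, against 12.19 in control cells, a difference of -0.21, smaller than the SD of 0.23 given above. Each was read by a single probe set, and the sign of the Cdh1 and Tjp1 differences is not stable, since Cdh1 stood at 0.03 with each array centred on its median and Tjp1 reached -0.01 with a trend or quantile correction.

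Of the 9 bright genes among the 10, 5 were at least 2-fold lower in overexpressing cells (Cdx2, Krt8, Krt18, Cldn6 and Cldn7) and 0 were at least 2-fold higher, against 1.3% and 1.53% of all 5609 bright genes. Nothing is read from that contrast, because the genes were chosen on it and because 3 of the 5 met the brightness mark only on the control array. With brightness taken from the mean of both arrays, a setting chosen after the data were seen, 4 of 8 were at least 2-fold lower and 0 higher, against 0.837% and 1.23% of 5379 genes. Cdx2 dropped out of the count there because its mean was too low. Of the 11 bright probe sets of these genes 7 were at least 2-fold lower and 0 higher, against 1.35% and 1.58% of 7983.

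The other keratins and claudins gave little to compare. Of 32 further keratin genes measured, none was bright, and 21 were under the floor on both arrays. Those under the floor on both include Krt7, a keratin of trophoblast, and Krt14, a keratin of stratified epithelia. Of 13 further claudin genes none was bright and 8 were under the floor on both. Cldn3, the neighbour of Cldn4, read 5.65 in overexpressing cells, just under the floor, and 6.54 in control cells.

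Other trophoblast genes did not share one direction. Apart from Cdx2, 18 of 22 listed were measured, and of the 6 bright ones 4 were lower and 2 higher. Of these 6, 0 were at least 2-fold different, against 1.3% lower and 1.53% higher of all 5609 bright genes. At such shares a count of 0 among 6 says little. The median of the 18 was -0.03, but -0.35 with no floor and -0.30 with the pseudocount, and 12 of them are dim. Bmp4 differed by -0.83, with 9.28 in overexpressing and 10.10 in control cells. Bmp4 lies on chromosome 14, where the 10 bright genes nearest to it had a median difference of -0.36. Fgfr2, the receptor through which FGF4 acts on trophoblast, differed by -0.73, with 7.67 in overexpressing and 8.40 in control cells. Tfap2c, a trophoblast factor that stem cells also express, differed by -0.43 and -0.79 on its 2 probe sets. Eomes, a T-box factor of trophoblast, differed by 0.20 on 1 probe set and -0.35 on another. Esrrb, which both trophoblast stem cells and naive stem cells express, was higher, at 0.65 and 0.17 on its 2 probe sets.

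Several trophoblast factors were dim on both arrays, while Eomes and Tfap2c were bright on both. Elf5, a factor of trophoblast stem cells, was under the floor on both, and Gata3 was not analysed here. Hand1, a factor of giant cells, read 6.21 in overexpressing cells and 6.85 in control cells and was dim. Gata2, dim too, read 4.80 in overexpressing cells and 6.88 in control cells. Other dim genes of the trophoblast list lay on both sides. Plet1 differed by -0.52 (-0.16 on its other probe set) and Esx1 by -0.27. Tfap2a differed by -0.07, with a bound of 0.23 on another probe set. Tead4 differed by 0.22, but the 10 bright genes nearest to it on chromosome 6 had a median of 0.36. Tpbpa and Ascl2, under the floor in control cells, gave bounds of 0.26 and 0.21. Of the 18 measured apart from Cdx2, 9 were lower, 5 higher and 4 had a difference of 0. Pou5f1, Sox2 and Nanog, which define embryonic stem cells, read 13.34, 13.59 and 13.44 in overexpressing cells, against 13.55, 13.41 and 12.87 in control cells. Among the 10 genes Cdx2 is the trophoblast factor, and the keratins and claudins are genes of simple epithelia in general. The pluripotency gene of largest difference was Tbx3, a T-box factor, at 0.92. In bulk RNA, fewer cells that express a gene and less RNA of it per cell cannot be told apart.

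Related genes outside the 10 lay on both sides of no difference. Over the trophoblast, tight junction, adherens junction and epithelial lists, 36 further bright genes had a median difference of 0.01. Of these 17 were lower and 19 higher, with a range of -0.83 to 0.80. In either direction 0 were at least 2-fold different, against 1.3% lower and 1.53% higher of all 5609 bright genes. At such shares a count of 0 among 36 says little. In the tight junction and polarity list, Pard3, a scaffold of the apical polarity complex, differed by -0.82, F11r, which encodes the junction adhesion molecule JAM-A, by -0.50, and Llgl2, a basolateral polarity gene, by 0.43. In the adherens junction and desmosome list, Vcl (vinculin) differed by 0.80, but the 10 bright genes nearest to it on chromosome 14 had a median of 0.93. Pkp2, a desmosomal plaque gene, differed by 0.53 on both of its probe sets. Nectin2, a nectin of adherens junctions, differed by 0.33 on 1 probe set and -0.48 on another. Ctnnb1, which encodes the beta-catenin that binds E-cadherin and was chosen after its value was seen, differed by 0.02. In the epithelial list Sfn, which encodes the 14-3-3 protein stratifin, differed by -0.82, with 7.49 in overexpressing cells and 8.31 in control cells. Cd9, a tetraspanin gene, differed by 0.77, with 12.79 in overexpressing cells and 12.01 in control cells, and the 10 bright genes nearest to it on chromosome 6 had a median of 0.28. Esrp2, an epithelial splicing factor gene, differed by -0.57. The 11 bright genes of that list outside the 10 were 5 lower and 6 higher. Grhl2, a transcription factor of epithelial genes that was also chosen after its value was seen, differed by -0.41.

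Among dim genes of the trophoblast, tight junction, adherens junction and epithelial lists, 4 of 31 were at least 2-fold lower in overexpressing cells and 0 at least 2-fold higher, against 3.25% and 1.42% of all 4704 dim genes. They were Dsc2, a desmosomal cadherin gene, Gata2, a trophoblast factor gene, Magi1, a junction scaffold gene, and Patj, a gene of the Crumbs polarity complex, and were picked out after their values were seen. Patj read 6.29 in overexpressing cells and 7.47 in control cells, above the floor on both arrays. Dsc2, Gata2 and Magi1 were under the floor in overexpressing cells, so their differences of -1.22, -1.23 and -1.20 are bounds set by the floor.

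**Figure D3:**
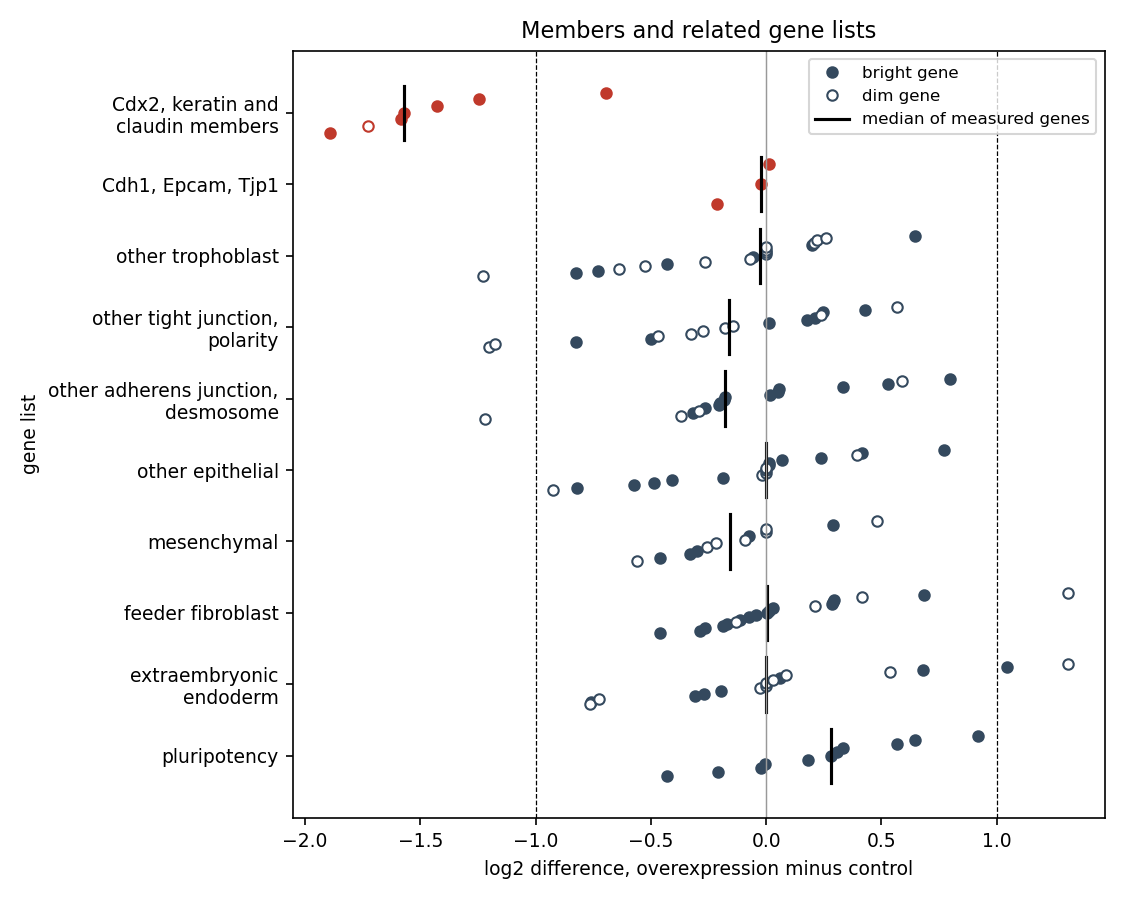
Log2 difference, overexpression minus control (horizontal axis), of each measured gene of the lists (rows), with bright genes filled, dim genes open, vertical bars at the median of the measured genes and dashed lines at a 2-fold difference. The Cdx2, keratin and claudin genes sit at the left with a median of -1.57, while the medians of the lists without them lie between -0.18 and 0.28, that of the other trophoblast genes being -0.03 here and -0.35 with no floor.

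Mesenchymal genes and genes of other cell types that the cultures could hold are set beside these values. Of 5 bright mesenchymal genes 4 were lower and 1 higher, all within 1.5-fold, as were 4973 of all 5609 bright genes. Zeb1, a repressor of Cdh1, differed by -0.46, the matrix protease gene Mmp14 by -0.33 (against a median of -0.60 of its 10 nearest bright genes on chromosome 14), the N-cadherin gene Cdh2 by -0.30 and Vim (vimentin) by -0.07, while Snai1, a second repressor, was dim. Of 15 bright feeder fibroblast markers 8 were lower and 7 higher. At least 2-fold different were 0 of the 15, against 1.3% lower and 1.53% higher of all 5609 bright genes. The largest differences of the fibroblast markers were 0.69 for Pdgfrb, -0.46 for Mmp2 and 0.29 for Prrx1. The second, dim probe set of Pdgfrb gave a bound of -0.98, and the other probe set of Mmp2 gave 0.20. The linear signals of the 19 measured fibroblast markers summed to 18159 on the overexpression array and 18955 on the control array, a ratio of 0.958, and none was at 0. Extraembryonic endoderm, another epithelium that expresses Krt8, Krt18 and Krt19, had 7 bright markers of 16 measured, 4 lower and 3 higher. Of the 3 higher 1 passed 2-fold, and of the 4 lower 0 did, beside the same 1.53% and 1.3% of all bright genes. Nothing is read from counts this small. The 1 that passed was Lama1, a basement membrane laminin gene, at 8.50 in overexpressing cells and 7.46 in control cells, a difference of 1.04. Amn, an endocytic receptor gene of visceral endoderm, differed by -0.76 and the type IV collagen gene Col4a1 by 0.68. The linear signals of the 16 summed to 8473 on the overexpression array and 9342 on the control array. Most of both sums came from Sparc, at log2 signals of 12.08 and 12.28, and Lamb1, at 10.93 and 11.19, so they say little of the other markers. The defining factors Gata4 and Sox17 were dim on both arrays, at 5.86 and 6.14 in overexpressing cells and 5.83 and 6.17 in control cells. Among other dim markers, Gata6 differed by 0.54 (-0.34 on its other probe set) and Foxa2 by -0.76. Pdgfra gave a bound of 1.31 (-0.02 on its other probe set) and Sox7 a bound of -0.72. The 10 bright genes nearest to Sox7 on chromosome 14 had a median of -0.54. Of the 16 endoderm markers measured, 7 were lower, 7 higher and 2 had a difference of 0. The part of these cell types in the keratin and claudin differences was not tested.

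Position in the genome was compared with the genes nearby, in the gene order of RefSeq GRCm38.p6. The 10 genes lie on chromosomes 5, 7, 8, 11, 15 and 17, and the median differences of the bright genes of those chromosomes ranged from -0.04 to 0.03. The 10 bright genes nearest to a gene, or 8 for Epcam, had medians from -0.21 around Epcam to 0.12 around Cdh1 over the 10 genes. None of the 10 lies on chromosome 14, where such medians were 0.93 around Vcl and -0.60 around Mmp14, or on chromosome 6, where they were 0.28 around Nanog and -0.04 around Gata2. Around Cdx2, the 5 bright genes among its 10 nearest measured genes had a median of 0.05 and ranged from -0.27 to 0.39. Around Cldn7 the 7 bright neighbours had a median of -0.08, and around Cldn4 the 6 bright neighbours had one of 0.11. Around Cldn6 the 7 bright neighbours were all lower, with a median of -0.23 and the lowest, Flywch2, at -0.90. Krt8 and Krt18 were each other's neighbour, and the other bright genes in their windows, from Eif4b to Rarg, ranged from -0.58 to 0.13. Krt19 had a single bright neighbour, the plakoglobin gene Jup, at -0.32.

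**Figure D4:**
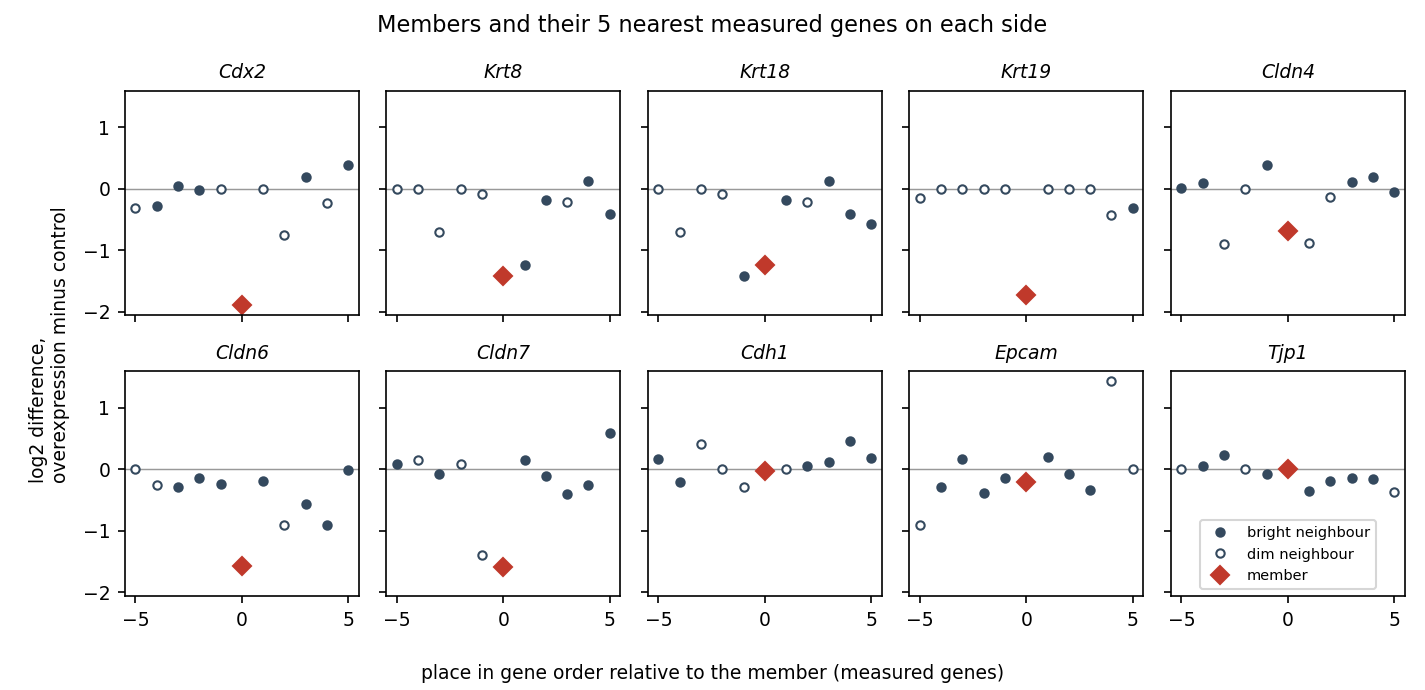
Log2 difference, overexpression minus control (vertical axis), of each of the 10 genes (red diamond) and its 5 nearest measured genes on each side in gene order (horizontal axis), bright neighbours filled and dim ones open. Cdx2, Krt19, Cldn6 and Cldn7 lie below all of their measured neighbours, Krt8 and Krt18 lie low together, and Cdh1, Epcam and Tjp1 lie among theirs.

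Likeness to other genes could be measured only over 2 arrays, as the distance between genes in the plane of their log2 signals. Cldn7 was the gene nearest to Cldn6, at a distance of 0.14, followed by the calmodulin-like gene Calml4 at 0.21. Nearest to Cdx2 were the guanylate-binding protein gene Gbp2 at 0.08 and the adaptor gene Efs at 0.17. Nearest to Krt8 were the metal transporter gene Slc39a14 at 0.16 and Gtsf1l at 0.32. With 2 values per gene, such nearness says only that both signals were alike.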

How the data were processed

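Total RNA of 2 embryonic stem cell cultures was amplified to biotin-labelled RNA for Affymetrix 3' arrays, per the labels' protocols. The authors deposited a log2 signal for each probe set on each array. The log2 scale was read from the values, whose maxima are 15.26 (overexpression) and 15.13 (control), and the sources used here do not give the scaling target. MAS5 and affy are named, without version or role, in the submitters' processing notes. Detection calls were not used here.

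Probe sets were named through the platform annotation, with symbols updated by gene ID to RefSeq (GRCm38.p6). Of 16994 probe sets, 15273 had 1 gene name, of which 15252 matched RefSeq, 501 had several and 1156 had none. Another 64 were control probe sets. Each array's named probe sets gave a floor at their 25th percentile (5.65 for overexpression, 5.73 for control), to which lower values were raised, and a gene under it on both arrays was given a difference of 0. The probe set of highest mean signal stood for its gene. A difference past 2-fold in a bright gene was counted. No test was made with 1 array per group. The 10 genes and the lists were chosen with earlier results of these data known.

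The genes named by rule are the 10, bright keratins and claudins, up to 3 bright genes of largest difference per list and genes fixed by name. Neighbours in gene order and the 2 nearest genes of Cdx2, Krt8 and Cldn6 were also named by rule. Further genes of the lists, among them Cdx4, Krt7, Tead4, Tpbpa, Plet1, Gata6, Pdgfra, Sparc and Lamb1, were named outside these rules with their values known. The motifs capitalised in the promoters were picked after the matches to all 8 were seen. The steps were tested on simulated data. Alternatives were other scalings, floors, a pseudocount of 32, brightness rules, probe set choices and a 1.5-fold threshold. Python 3.11.15, pandas 2.3.3 and statsmodels 0.14.6 were used.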

Additional observations from a re-analysis of the deposited data

How the results depend on the processing

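With 1 array per group, the spread among bright probe sets of 1 gene (SD 0.23) served as the yardstick for a moved value. The median difference of Cdx2, the keratins and the claudins stayed between -1.58 and -1.37 over all 12 alternatives, and that of Cdh1, Epcam and Tjp1 between -0.07 and 0.03. The brightness rules and the 1.5-fold threshold do not enter a difference, so under those alternatives these medians could not change. The count of 5 of the 10 genes at least 2-fold lower was 4 to 6 in 11 alternatives and 1, Krt8, with brightness at the 75th percentile, since only 4 of the 10 genes are that bright. The counts over all bright genes, 73 lower and 86 higher, were 226 and 153 with no brightness rule, 15 and 37 with brightness at the 75th percentile and 375 and 261 at 1.5-fold, as each setting admits more or fewer genes. With brightness from the mean of both arrays, added after the data were seen, 45 were lower. Among values of single genes and lists, 9 of 273 moved, all tied to the floor or to probe set averaging. The 273 include the values under the brightness rules and the 1.5-fold threshold, which could not move. Cdx2 was -1.63 under the pseudocount and -1.64 averaged over its probe sets, 1 of which gives only a bound set by the floor. Krt19 was -0.90 under a 40th percentile floor and -1.37 under the pseudocount. The trophoblast list, at -0.06, was -0.43 with no floor and -0.41 under the pseudocount, without Cdx2 -0.35 and -0.30 against -0.03. The median of Cdx2 and Cdx4 was -2.46 with no floor, against -0.95. With probe sets ending in _s_at, _x_at or _a_at left out, Krt8, Epcam and Tjp1 had no value left. No paired analysis was possible because each group had 1 array. Signals near the floor limit what can be said of Krt19 and of the second Cdx2 probe set.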
